A study of Saccharomyces cerevisiae with 14 samples.

Results

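Ribosome biogenesis factors are the nucleolar proteins that assemble the ribosome, and 60 of their genes were followed here out of 7122 genes in the expression table. The genes were chosen by function and systematic name (the NOP, UTP, IMP, NOC, RPF and DBP genes and related ones). No value in the table entered this rule, but the choice was made with earlier results of these data known. All 60 passed the filter on low values, a mean of at least 5 normalized counts, as did 6592 genes in all. None of the 60 differed between strains past the threshold, where 0% to 0.0455% of all genes did, depending on the comparison. Their transcripts rose and fell together from culture to culture, over a 6.03-fold range in summed level, and most of this variance lay within strains.

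In the nucleolus RNA polymerase I makes a long precursor rRNA, and small nucleolar ribonucleoproteins, scaffold complexes, RNA helicases and GTPases fold, modify and cut it into the rRNAs of the small and the large ribosomal subunit. In budding yeast the genes of these factors form a well-known regulon, which is high in fast growth and low under starvation or stress. Promoters of this regulon often carry PAC and RRPE, short elements that are bound by the repressors Dot6 and Tod6 and by Stb3, respectively.

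The study measured mRNA in chaperone-enriched strains (ChES) of Saccharomyces cerevisiae Y258, an S288C derivative, each carrying a plasmid with a URA3 marker for overexpression (oe) of a single chaperone. There were 3 libraries each of oe SSC1 (mitochondrial Hsp70), oe LHS1 (an Hsp70 family chaperone of the endoplasmic reticulum) and oe TCP1 (a subunit of the cytosolic chaperonin), and 2 of oe EGD2 (the nascent polypeptide-associated complex). The labels give exponential growth at 30 °C in -URA medium with 2% glucose for all 4 strains, whereas the methods of the study describe induction in galactose and harvest after the diauxic shift, so the growth state at harvest is uncertain. Cultures with an empty vector, 3 by the labels, are not analysed here, and every comparison is among the 4 strains. The methods call the replicates biological, but the labels do not tie a number to a shared culture or day, and p-values measure the spread between these libraries.

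The libraries held 10127206 to 20286329 reads (median 14090055), and the members had 214 to 12375 reads per gene and library. LHS1 transcript was 23647 to 60337 normalized counts in its own strain against 1344 to 2211 elsewhere, and TCP1 was 22042 to 47002 against 1726 to 2577. EGD2 stood at 24039 and 17746 in its strain against 6127 to 16374. SSC1 was 30045, 82518 and 11336 normalized counts where the label reads oe SSC1 and 14940 to 32390 in the other strains. It was thus within the range of the other strains in replicate 1 and below it in replicate 3. As it was raised in replicate 2 only, the libraries labelled oe SSC1 are named by their label only. URA3 was 113922 to 367819 normalized counts, and GAL1, the galactokinase induced by galactose, was 237 to 836. A culture with fewer cells that express a gene cannot be told apart from one with less RNA per cell.

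Promoter sequence did not enter the choice of genes. PAC and RRPE were searched because this regulon is known for them, so their matches are a description. The motif letters searched were GATGAG for PAC and AAAAATTT for RRPE, on both strands, in the 250 bases before the start codon. These letter strings do not contain each other. Of the 60 members, 57 had a PAC match (95%, Wilson 95% interval 86.3 to 98.3%) and 52 had an RRPE match (86.7%, 75.8 to 93.1%). Of all 6001 promoters of protein-coding genes, 17.0% had PAC and 13.4% had RRPE. Both motifs stood in 50 member promoters (83.3%) and in 4.98% of all promoters. UTP22 was the only member with neither.

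Promoters of 7 members are shown, those with the largest spread over libraries (NSR1, RRP12, NOP7), those with the smallest (SPB4, UTP7, DIP2) and UTP22, which was added because it had no match. Each is the 250 bases before the start codon, read 5′ to 3′ on the gene's strand from the RefSeq R64 assembly, the assembly of sacCer3. Capitals mark PAC (GATGAG or its reverse complement CTCATC) and RRPE (AAAAATTT or AAATTTTT). The coordinates are chrVII:807657-807906 (minus strand) for NSR1, chrXVI:529473-529722 (plus) for RRP12, chrVII:695167-695416 (plus) for NOP7, chrVI:146935-147184 (minus) for SPB4, chrV:325937-326186 (minus) for UTP7, chrXII:399407-399656 (plus) for DIP2 and chrVII:662108-662357 (plus) for UTP22.
NSR1: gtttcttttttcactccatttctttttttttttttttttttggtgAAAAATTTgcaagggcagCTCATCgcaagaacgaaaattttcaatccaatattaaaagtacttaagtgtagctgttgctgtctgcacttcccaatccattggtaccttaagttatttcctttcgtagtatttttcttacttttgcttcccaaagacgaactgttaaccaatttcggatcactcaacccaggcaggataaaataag
RRP12: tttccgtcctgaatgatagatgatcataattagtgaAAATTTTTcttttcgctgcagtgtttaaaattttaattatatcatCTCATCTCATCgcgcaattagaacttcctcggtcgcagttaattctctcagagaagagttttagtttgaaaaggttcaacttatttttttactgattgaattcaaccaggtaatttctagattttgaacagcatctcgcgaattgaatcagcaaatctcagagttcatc
NOP7: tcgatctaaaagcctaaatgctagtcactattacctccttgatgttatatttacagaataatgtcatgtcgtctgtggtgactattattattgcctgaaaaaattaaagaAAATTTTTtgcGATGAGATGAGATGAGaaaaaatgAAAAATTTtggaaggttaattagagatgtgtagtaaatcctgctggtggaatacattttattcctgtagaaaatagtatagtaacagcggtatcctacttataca
SPB4: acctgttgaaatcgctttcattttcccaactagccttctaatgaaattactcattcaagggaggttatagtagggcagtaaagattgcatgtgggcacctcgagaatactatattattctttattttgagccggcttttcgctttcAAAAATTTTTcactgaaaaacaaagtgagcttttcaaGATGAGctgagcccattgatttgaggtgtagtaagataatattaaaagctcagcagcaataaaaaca
UTP7: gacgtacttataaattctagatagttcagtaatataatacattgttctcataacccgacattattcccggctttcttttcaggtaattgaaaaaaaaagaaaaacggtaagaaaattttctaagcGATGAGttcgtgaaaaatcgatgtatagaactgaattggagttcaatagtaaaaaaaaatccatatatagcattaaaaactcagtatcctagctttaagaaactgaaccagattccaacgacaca
DIP2: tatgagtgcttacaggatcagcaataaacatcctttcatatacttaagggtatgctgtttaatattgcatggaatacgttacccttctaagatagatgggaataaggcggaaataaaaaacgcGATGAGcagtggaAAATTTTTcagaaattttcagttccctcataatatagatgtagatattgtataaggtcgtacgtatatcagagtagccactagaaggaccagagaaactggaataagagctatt
UTP22: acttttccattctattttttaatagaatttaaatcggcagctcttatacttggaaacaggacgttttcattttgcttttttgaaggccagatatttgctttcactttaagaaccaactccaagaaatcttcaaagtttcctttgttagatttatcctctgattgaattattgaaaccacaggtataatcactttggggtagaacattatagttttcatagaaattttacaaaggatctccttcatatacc
NOP7 carried 3 overlapping PAC matches between a pair of RRPE matches, RRP12 carried 2 overlapping PAC matches, and NSR1 had 1 of each motif, as did DIP2 at the other end of the spread. SPB4, with the smallest spread, had 1 PAC and 2 overlapping RRPE matches, and UTP7 had PAC alone. As only UTP22 had neither motif, the presence of a match could not separate members with a large spread from those with a small one. The median SD of log2 level was 0.79 for the 50 members with both motifs (0.45 to 0.99) and 0.78 for the 9 with 1 motif (0.55 to 0.83), and it was 0.59 for UTP22.

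Most matches of members lay in one zone. The median PAC match was 115 bases before the start codon and the median RRPE match 132.5 bases, and 88 of 92 PAC matches (95.7%) were between 50 and 200 bases, against 74.9% of 1109 PAC matches in other promoters. For RRPE the median of other promoters was 132 bases, close to that of members, and 91.7% of 84 matches in members and 79.0% of 897 in other promoters lay in this zone. In the 50 members with both, the shortest gap between a PAC and an RRPE match had a median of 9 bases (2 to 51), and it was at most 30 bases in 44. Of 77 other assembly factors, which were listed by function, 87.0% had PAC and 80.5% had RRPE. Ribosomal protein genes had PAC in 10.2% and RRPE in 11.7% of 137 promoters (Wilson 95% intervals 6.19 to 16.4% and 7.32 to 18.1%), so their PAC share was below the 17.0% of all promoters. Of 20 genes induced in the environmental stress response 0 had PAC (upper limit of the Wilson interval 16.1%).

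**Figure D1:**
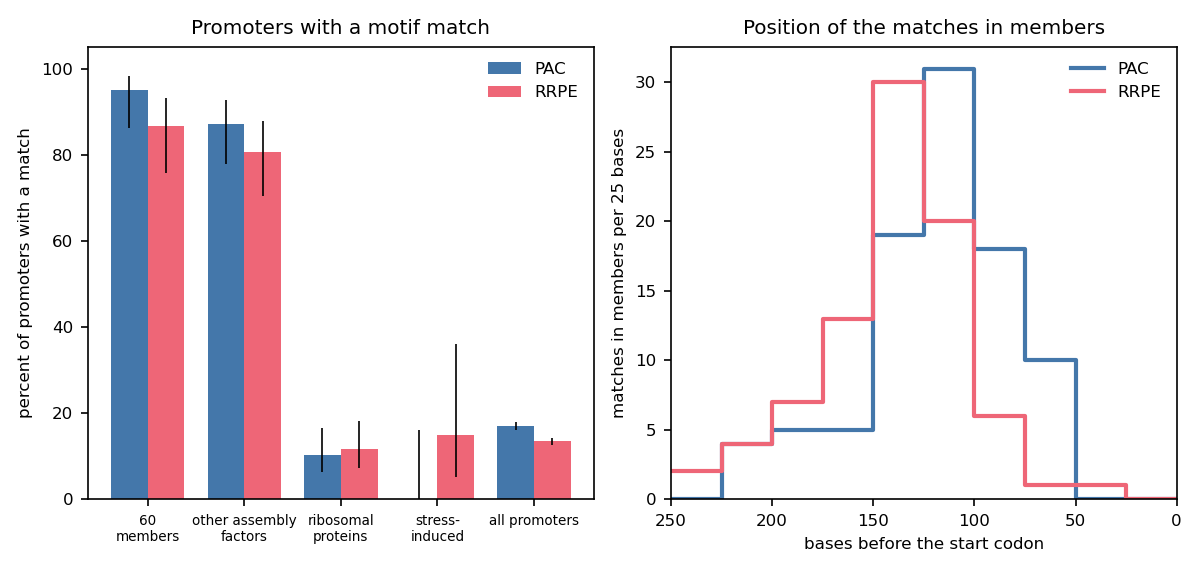
Left, percent of promoters with a match to PAC (blue) or RRPE (red) in the 250 bases before the start codon, with Wilson 95% intervals. Right, number of matches in the 60 members per 25 bases against the distance before the start codon. Members stand at 95% for PAC and 86.7% for RRPE against 17.0% and 13.4% of all promoters, and their matches gather around 100 to 150 bases.

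Levels differed between members by role. Per kilobase of transcript, 5 of the 6 snoRNP core proteins were the highest members, ahead of RLP7 (3731 normalized counts per kb) and NSR1 (3489), with NOP58 next at 3263. NOP1 (YDL014W), the fibrillarin homolog that methylates rRNA, had a mean of 7874 normalized counts per kb over the 11 libraries, GAR1 5936 and NHP2 4990. The scaffold proteins with long genes were lowest, with UTP20 at 420 normalized counts per kb, UTP10 at 533 and RRP5 at 604. Per gene, means ran from 501 normalized counts for IMP3 to 7748 for NOP1, with RRS1 next above IMP3 at 1002. Only NOG2 has more than 1 exon, and its intron holds the snoRNA gene SNR191. GAR1 and RPF1 are neighbours on chromosome VIII, 298 bases apart, and the 60 members lie on 14 chromosomes.

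The summed level of the 60 members was 141808, 159049 and 80226 normalized counts in replicates 1 to 3 of the libraries labelled oe SSC1. It reached 129442, 221906 and 234265 in oe LHS1. It was 98554 and 62232 in oe EGD2 and 119453, 86001 and 375160 in oe TCP1. Thus oe TCP1 replicate 3 stood far above every other library and oe EGD2 replicate 2 lowest, and the oe TCP1 libraries alone spanned most of the range. The members took 0.437% to 2.65% of the normalized total.

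Most members followed this order at its ends. Of the 60 members, 59 were highest in oe TCP1 replicate 3, and 57 were lowest in oe EGD2 replicate 2. UTP20 was highest in replicate 2 labelled oe SSC1, and HAS1, SPB4 and SDA1 were lowest in replicate 3 labelled oe SSC1. In oe LHS1 replicates 2 and 3 and oe TCP1 replicate 3, all 60 members were above their own mean over libraries. In oe EGD2 replicates 1 and 2, oe TCP1 replicate 2 and replicate 3 labelled oe SSC1, 0 of 60 were. For 50 members the 3 highest libraries were oe TCP1 replicate 3 and oe LHS1 replicates 3 and 2, the same as for the sum, whereas the 3 lowest libraries were those of the sum for 32 members.

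**Figure D2:**
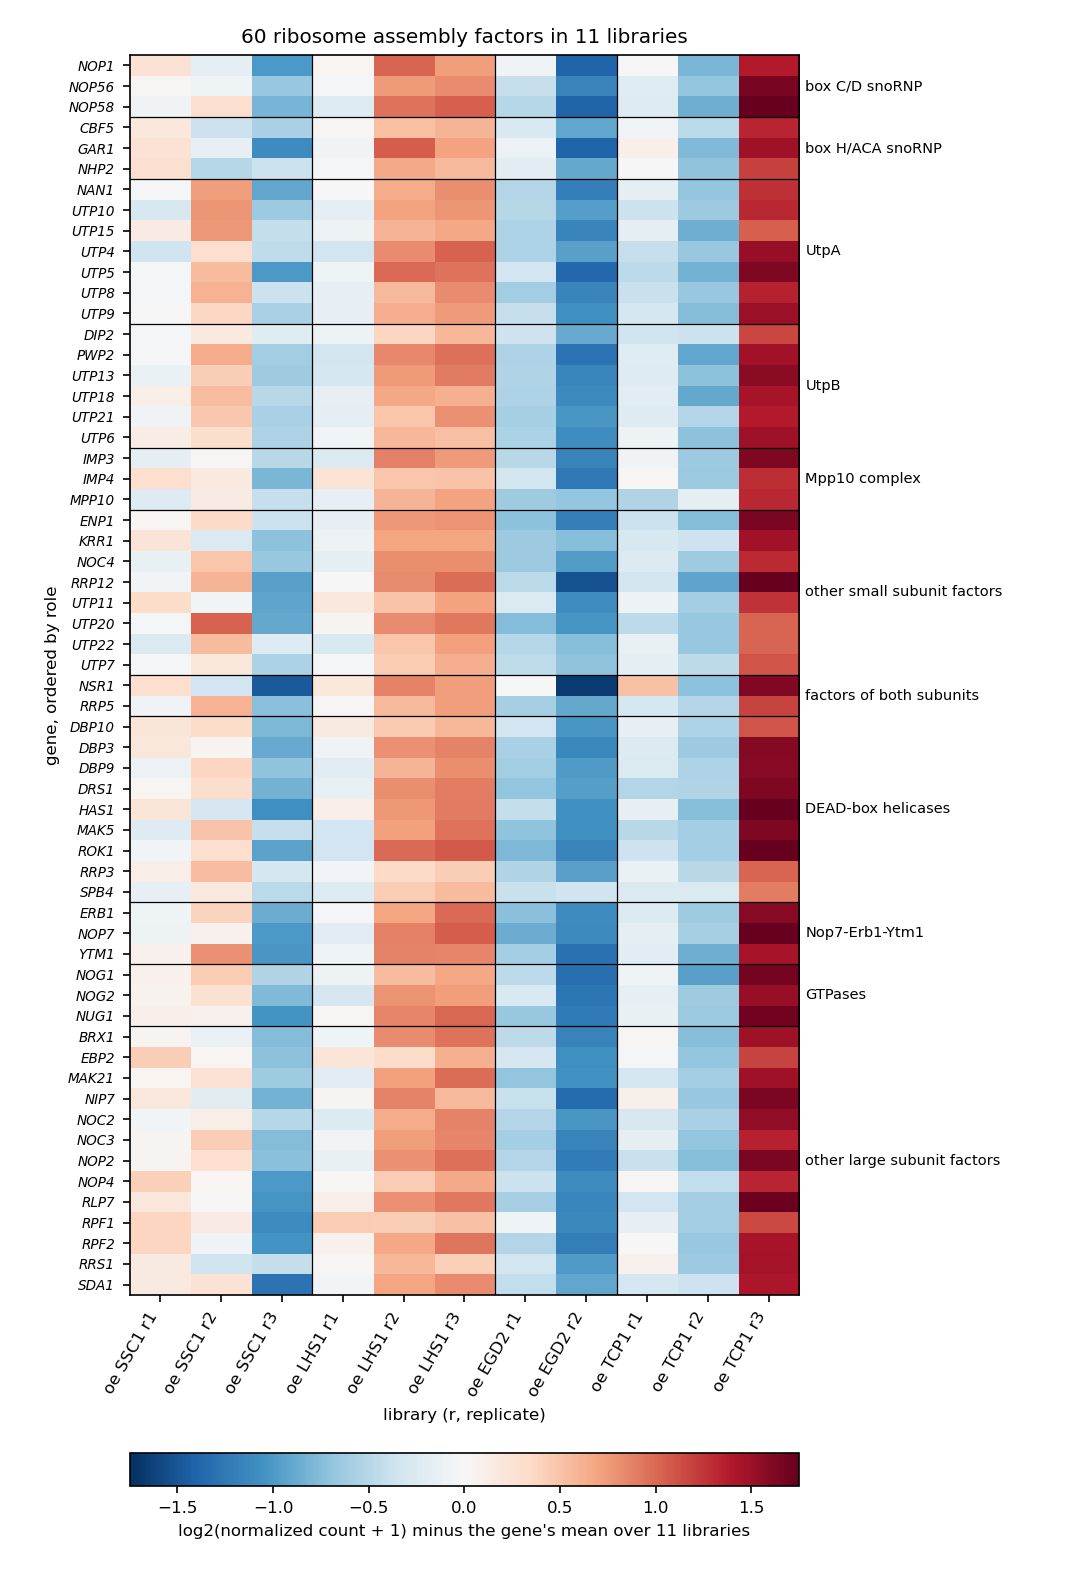
Level of each member (rows, by role) in each library (columns, by strain) as log2 of the normalized count plus 1, minus the gene's mean over the 11 libraries. The columns of oe LHS1 replicates 2 and 3 and oe TCP1 replicate 3 are red for all 60 members, and those of both oe EGD2 libraries, oe TCP1 replicate 2 and replicate 3 labelled oe SSC1 are blue.

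Among the box C/D snoRNP proteins, which carry out 2′-O-methylation of rRNA, NOP1 was 6342 and 2515 normalized counts under oe EGD2, 6700, 3816 and 17324 under oe TCP1, 6828, 13479 and 11056 under oe LHS1 and 7904, 5949 and 3311 under the label oe SSC1. The strains overlapped, and oe TCP1 held both the highest library and others below every oe LHS1 library. NOP58 (YOR310C), a core protein of the same particles, ran from 1547 (oe EGD2 replicate 2) to 13972 normalized counts (oe TCP1 replicate 3; median 3489), and its partner NOP56 from 2146 to 15252 (median 4587). In the box H/ACA snoRNPs, which make pseudouridine, the synthase CBF5 (YLR175W) ran from 3175 to 14960 (median 5751), GAR1 from 1175 to 8682 (median 2976) and NHP2 from 1154 to 4911 (median 2097). The fold between the highest and the lowest library was 6.89 to 9.03 for the box C/D proteins and 4.26 to 7.39 for the box H/ACA proteins.

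NSR1 (YGR159C), a nucleolin-like protein that binds pre-rRNA, had the largest spread of all members, with an SD of 0.99 on the log2 scale. Its level was 3538 and 1118 normalized counts under oe EGD2, 5080, 2166 and 10971 under oe TCP1, 4047, 6494 and 5914 under oe LHS1 and 4354, 2816 and 1284 under the label oe SSC1. It was the member farthest below its own mean both in oe EGD2 replicate 2 (-1.67) and in replicate 3 labelled oe SSC1 (-1.47). It stayed near its mean in oe EGD2 replicate 1 (-0.01), where the median member was at -0.51.

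The UtpA complex (UTP4, UTP5, UTP8, UTP9, UTP10, UTP15 and NAN1) binds the leading end of the pre-rRNA, and UtpB (PWP2, DIP2 and UTP6, UTP13, UTP18 and UTP21) joins it in the small-subunit processome. UTP4 ran from 753 to 4201 normalized counts over the libraries (median 1148) and UTP10 from 1270 to 6208 (median 2044). PWP2 ran from 789 to 5356 (median 1666) and DIP2 from 1036 to 4279 (median 1786). These 4 were lowest in oe EGD2 replicate 2 and highest in oe TCP1 replicate 3. DIP2 had the third smallest spread of the members (SD 0.56). In the Mpp10 complex, which acts at the U3 snoRNA, IMP3 ran from 190 to 1335 normalized counts (median 382), IMP4 from 641 to 3749 (median 1712) and MPP10 from 1100 to 4398 (median 1568).

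RRP12 (YPL012W), a factor in the maturation and export of pre-ribosomes, had the largest fold between libraries, 10.3. It was 1954 and 944 normalized counts under oe EGD2, 2185, 1436 and 9717 under oe TCP1, 2707, 4846 and 5348 under oe LHS1 and 2636, 4095 and 1411 under the label oe SSC1. Again oe TCP1 held the highest library and others below every oe LHS1 library, and the lowest library was in oe EGD2. UTP22 (YGR090W) had one of the smaller folds, 3.38, with 1647 and 1397 normalized counts under oe EGD2, 2131, 1472 and 4723 under oe TCP1, 1942, 3272 and 3823 under oe LHS1 and 1962, 3414 and 2003 under the label oe SSC1. ENP1 ran from 606 to 4347 normalized counts (median 1259) and KRR1 from 952 to 4447 (median 1339), factors that stay with late small-subunit precursors and that build the processome, respectively.

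The 9 DEAD-box helicases, which unwind and remodel RNA, held both wide and narrow members. ROK1 ran from 483 to 3890 normalized counts (8.05-fold; median 851), HAS1 from 964 to 6845 (7.1-fold; median 1842) and DBP3 from 1174 to 7814 (6.66-fold; median 2455). SPB4 (YFL002C), a helicase of the large subunit, was the least variable member, at 951 and 976 normalized counts under oe EGD2, 1044, 1039 and 2321 under oe TCP1, 1061, 1685 and 1829 under oe LHS1 and 1130, 1406 and 900 under the label oe SSC1. Its 2.58-fold range compares with a median of 5.98 over the members and 2.62 over all genes tested.

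In the large-subunit pathway NOP7 (YGR103W), which forms a complex with ERB1 and YTM1, was 2034 and 1720 normalized counts under oe EGD2, 3292, 2483 and 15010 under oe TCP1, 3258, 6836 and 7748 under oe LHS1 and 3480, 3910 and 1861 under the label oe SSC1. It stood 2.01 above its own mean on the log2 scale in oe TCP1 replicate 3, more than any other member. ERB1 ran from 1118 to 7246 normalized counts (median 2275) and YTM1 from 673 to 4524 (median 1582). The GTPases NOG1, NOG2 and NUG1, which act as the large-subunit precursor matures, had folds of 6.88 to 8. Among the remaining factors, the rRNA methyltransferase NOP2 ran from 1192 to 8734 normalized counts (median 2545), NOC2 from 1123 to 6708 (median 1939) and SDA1 from 1018 to 6669 (median 2415). RPF2 and RRS1, which work together in bringing the smallest rRNA into the particle, ran from 764 to 4782 (median 1754) and from 451 to 2478 (median 914).

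The members varied more than most genes. Their SD over the 11 libraries had a median of 0.79 on the log2 scale (0.45 for SPB4 to 0.99 for NSR1), against 0.44 for all genes tested and 0.39 for 4266 other genes with means in the same range, and all 60 lay above the median of all genes. Most of it was spread within strains. The within-strain SD had a median of 0.75 over members and 0.45 over all genes tested. Strain means took up a median of 36.2% of a member's variance (28.4% for SPB4 to 43.7% for NUG1) and 26.5% over all genes tested. With 4 strains over 11 libraries, such a share is well above 0 even where strains do not differ, and it was not adjusted for this. By the limma F test, the unadjusted p of members ran from 0.133 (NUG1) to 0.411 (SPB4). Without oe TCP1 replicate 3 the median SD of the members was 0.65, and the range between the highest and the lowest library fell from 2.58 to 1.91 on the log2 scale.

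**Figure D3:**
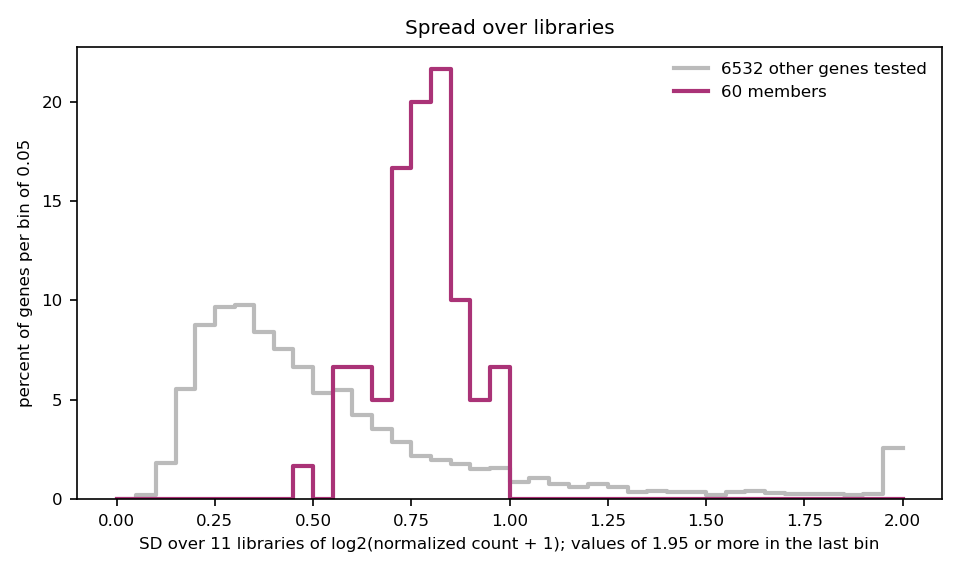
Percent of genes per bin of the SD over 11 libraries of log2 of the normalized count plus 1, for the 60 members (purple) and the 6532 other genes tested (grey). Apart from SPB4 at 0.45, the members lie between 0.55 and 0.99 around a median of 0.79, to the right of the bulk of the genes.

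The strains were then compared, each against the mean of the other 3, to ask whether one chaperone was tied to a different level of these transcripts. By limma with Benjamini-Hochberg adjustment over all 6592 genes, 0 of 60 members passed an adjusted p of 0.05 in any comparison. The background was as low, with 0.0152% of genes called for the libraries labelled oe SSC1, for oe LHS1 and for oe TCP1 (1 gene each), 0% for oe EGD2 and 0.0455% (3 genes) by the F test for any difference. At an unadjusted p under 0.05 there were 2 members for oe EGD2 and 0 in the other comparisons, where 2.94% of all genes were under that value for oe EGD2, 3.69% for oe LHS1, 0.895% for the libraries labelled oe SSC1, 0.364% for oe TCP1 and 0.561% by the F test. On recovered reads, edgeR and DESeq2 also called 0 members, and edgeR gave 2 members for oe EGD2 at an unadjusted p under 0.05.

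In oe EGD2 the members' differences were the largest. The median member difference was -0.99 on the log2 scale (-1.22 to -0.45) and all 60 were negative, while the median over all genes tested was -0.01. The members rose and fell together, so 60 differences of one sign, here and below, do not count as 60 separate results. RRP3 (YHR065C), a DEAD-box helicase of the small subunit, was 1094 and 819 normalized counts under oe EGD2, 1458, 1125 and 3210 under oe TCP1, 1525, 2001 and 2134 under oe LHS1 and 1716, 2306 and 1284 under the label oe SSC1. Both oe EGD2 libraries were below all 9 others. The difference was -0.91 ± 0.37 (SE; limma adjusted p = 0.707). UTP15 of UtpA differed by -1.04 ± 0.46 (SE; limma adjusted p = 0.707), and its mean was 741 ± 221 normalized counts for oe EGD2 (SD, n = 2) beside 1529 ± 1034 for oe TCP1 (SD, n = 3). MAK5, RRP3, MPP10, UTP21 and MAK21 were the 5 members with both oe EGD2 libraries below every other library, or 5 of 60 where 2.40% of all genes tested were so placed. With DESeq2, 35 members had an unadjusted p under 0.05 for oe EGD2 (7.66% of all genes), and the lowest adjusted p among members was 0.621. By limma this count was 43 without oe TCP1 replicate 2 (10.4% of all genes) and 0 without oe EGD2 replicate 2, without oe LHS1 replicate 2 or without oe LHS1 replicate 3.

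In oe LHS1 all 60 differences were positive, with a median of 0.70 (0.38 to 0.94) against 0.01 over all genes tested. NUG1 (YER006W) had a difference of 0.94 ± 0.48 (SE; limma adjusted p = 0.677). Its level was 3138, 5620 and 6205 normalized counts under oe LHS1, 1949 and 1309 under oe EGD2, 2837, 1980 and 9987 under oe TCP1 and 3280, 3257 and 1507 under the label oe SSC1. Replicate 1 of oe LHS1 lay among the other strains' libraries, and oe TCP1 replicate 3 lay above all of oe LHS1. UTP20 differed by 0.90 ± 0.46 (SE; limma adjusted p = 0.677). Without oe TCP1 replicate 3, all 60 members had an unadjusted p under 0.05 for oe LHS1, as did 18.6% of all genes, but the lowest adjusted p among members was 0.249.

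In oe TCP1 all 60 differences were also positive, with a median of 0.36 (0.05 to 0.72) against 0.00 over all genes tested, and this rested on 1 library. Without replicate 3 the median was -0.26, and 59 of 60 were negative. NSR1 differed by 0.72 ± 0.55 and NOP7 by 0.67 ± 0.53 (SE; limma adjusted p = 0.99983 for each). NOP7 had a mean of 6928 ± 7010 normalized counts in oe TCP1 (SD, n = 3). Without replicate 3 its difference was -0.13.

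In the libraries labelled oe SSC1 the median member difference was -0.11 (-0.58 to 0.31), with 16 positive and 44 negative. NSR1 differed by -0.58 ± 0.55 and HAS1 by -0.43 ± 0.49 (SE; limma adjusted p = 0.99991 for each). HAS1, a helicase of both subunits, had a mean of 1661 ± 697 normalized counts in these libraries (SD, n = 3) and 3136 ± 871 in oe LHS1 (SD, n = 3). Without replicate 3 the median was 0.20, and with replicate 2 alone, the library with raised SSC1, it was 0.32, with 46 positive and 14 negative (a single library, assumed to vary like those of the other strains). The direction of the members in these libraries thus depended on which of them entered. By the F test the lowest p among members was that of NUG1 (0.133, adjusted p = 0.964 by limma), followed by BRX1 (0.157, adjusted p = 0.964), a large-subunit factor.

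**Figure D4:**
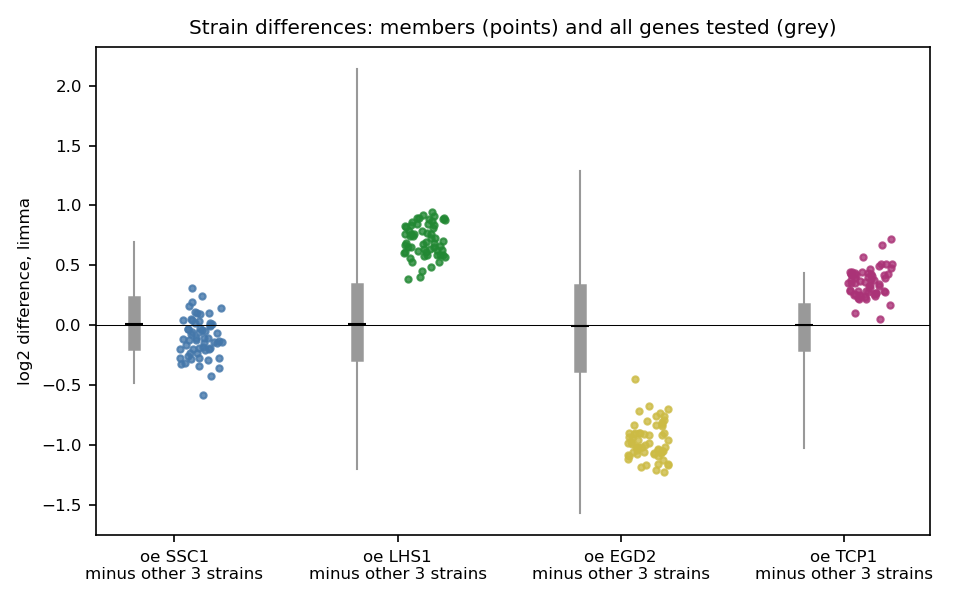
Difference of each strain from the mean of the other 3 on the log2 scale (limma), as coloured points for the 60 members and in grey for all 6592 genes tested (thick line, middle 50%; thin line, middle 95%; black tick, median). All 60 points are above 0 for oe LHS1 and oe TCP1 and below 0 for oe EGD2, and 0 of 60 passed the threshold in any comparison. The points of a strain are not independent, since the members rose and fell together.

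The members followed each other closely over libraries. Pearson's r between a member and the mean of the other 59, over 11 libraries, had a median of 0.976 and was above 0.9 for 59 members. It was highest for NOP2 (0.997) and lowest for NSR1 (0.893), NHP2 (0.909), RPF1 (0.914) and UTP20 (0.916). Of the 6532 other genes tested, 5.66% had an r above 0.9 to the mean of the members, with a median of 0.02. These values describe 11 libraries of 4 strains in which 3 libraries stand high, and they carry no test.

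The other genes with the most similar profile included known partners in ribosome assembly. SSF1, a large-subunit factor, had the highest r (0.993), with 560 to 4996 normalized counts over the libraries. Next were FUR1 (0.992), the uracil phosphoribosyltransferase of pyrimidine salvage, BUD22 (0.991), a small-subunit factor, YVH1 (0.991), a phosphatase that acts late on the large subunit, and BFR2 and RSA4 (0.990 each), factors of the small and the large subunit. RRP45, an exosome subunit, ELP3 of Elongator, PUF6 and the export adaptor NMD3 had 0.990, 0.989, 0.989 and 0.989. The most opposed genes were ATG42 (-0.987), a vacuolar carboxypeptidase, ATG19 (-0.986), a receptor of selective autophagy, YSC84 (-0.984), GPM2 (-0.983) and ASI2 (-0.981).

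The profile was also set beside the motifs in genes that are not members. Of 247 other genes tested with both PAC and RRPE, 118 (47.8%) had an r above 0.9 to the mean of the members, beside 60 of 658 with PAC only (9.12%), 55 of 502 with RRPE only (11%) and 126 of 4357 with no match (2.89%). Without the genes on the lists of other assembly factors and RNA polymerase I, 66 of 188 with both motifs (35.1%) were above 0.9. These lists are not complete, as BUD22 and YVH1 are on neither, so assembly genes may remain among the 188. Even so, 35 of the 247 genes had an r below 0.

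Lists of related genes gave the setting of this profile. Of 79 other assembly factors listed, 77 were found, and their r to the members had a median of 0.963, with 67 above 0.9. Their median log2 level relative to each gene's own mean was 1.29 in oe TCP1 replicate 3 and -1.03 in oe EGD2 replicate 2, beside 1.47 and -1.11 for the members. Among them DBP2 ran from 1250 to 23510 normalized counts. Of these 77 genes 0 passed the limma threshold in any strain comparison, and their median differences were -0.89 for oe EGD2, 0.36 for oe TCP1, 0.63 for oe LHS1 and -0.10 for the label oe SSC1, beside -0.99, 0.36, 0.70 and -0.11 for the members.

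The 8 genes of RNA polymerase I and its factor RRN3 had a median r of 0.915, with 6 above 0.9, and 0 passed the limma threshold. RPA43 (0.983) and RPA34 (0.983), which encode enzyme subunits, were closest, while RPA14 (0.402) and RRN3 (0.622), which recruits the enzyme to rDNA, were not highest in oe TCP1 replicate 3. The 137 cytosolic ribosomal protein genes had a median r of 0.768, and 6 of them were above 0.9. Most are duplicated genes, so their counts are uncertain where reads fit both copies. Of these 137 genes 0 passed the threshold, with a median difference of 0.47 in oe LHS1 and -0.45 in oe EGD2.

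Genes induced in the environmental stress response ran opposite to the members. The 20 genes had a median r of -0.904 (-0.970 to -0.534). Their median log2 level relative to each gene's own mean was -3.11 in oe TCP1 replicate 3, -1.73 and -1.84 in oe LHS1 replicates 2 and 3, and 1.81 in oe EGD2 replicate 2, the reverse of the members' 1.47, 0.70, 0.80 and -1.11. HXK1, a hexokinase repressed by glucose (r = -0.958), was lowest at 651 normalized counts (oe TCP1 replicate 3) and highest at 116407 (oe EGD2 replicate 2). HSP104 (r = -0.553) and HSP42 (r = -0.534) were less opposed, and both were highest in replicate 2 labelled oe SSC1. Of these 20 genes 0 passed the limma threshold, with medians of -1.48 in oe LHS1 and 1.85 in oe EGD2. The part of the stress response in this order of libraries was not tested.

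**Figure D5:**
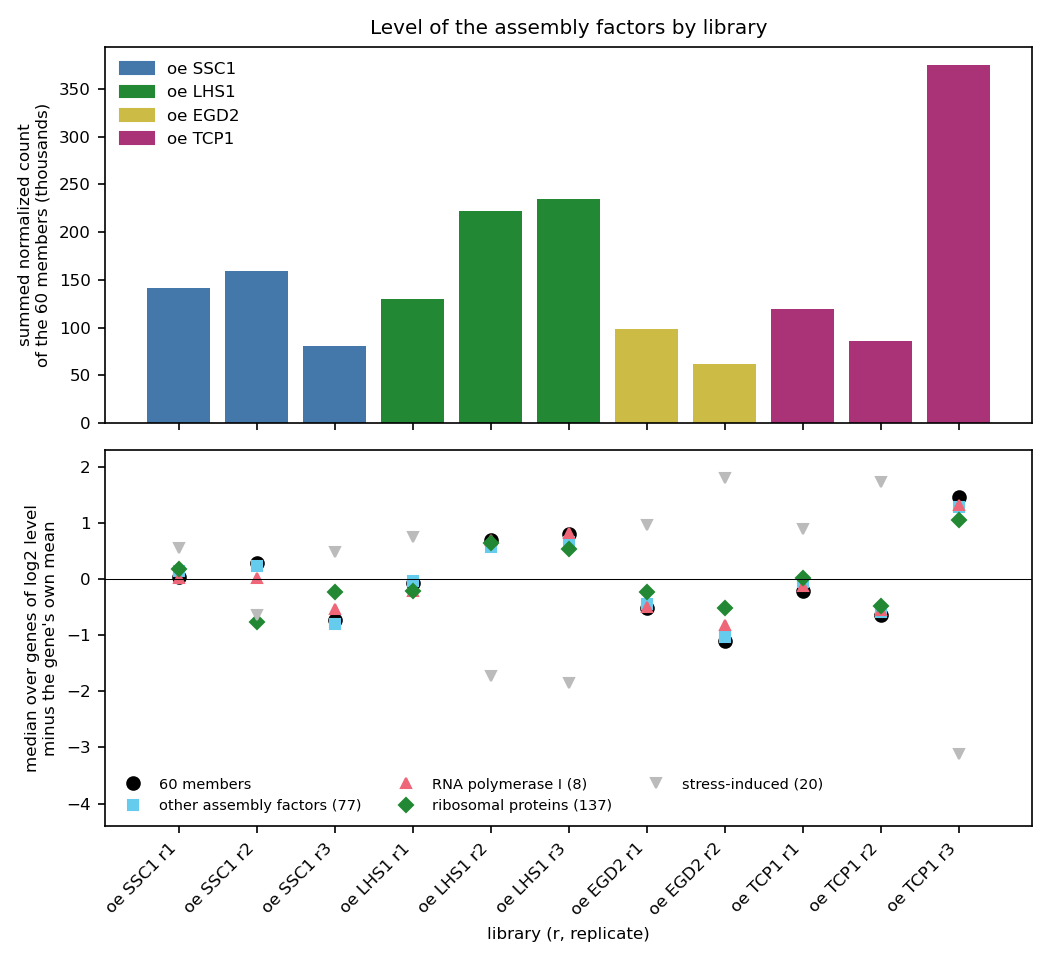
Top, summed normalized count of the 60 members in each library, coloured by strain. Bottom, median over genes of the log2 level minus each gene's own mean, for the members and the lists named in the key (number of genes tested in parentheses). The members reach 375160 in oe TCP1 replicate 3 and 62232 in oe EGD2 replicate 2, where the stress-induced genes stand at -3.11 and 1.81.

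Transcripts of the regulators themselves were mixed. Of 14 regulators listed, 0 passed the limma threshold, and their r to the members had a median of 0.433 (-0.915 to 0.912). Beside DOT6, those with the highest means were HMO1 (r = 0.603), SCH9 (0.536) and RAP1 (0.658). DOT6, the PAC-binding repressor, ran against the members (r = -0.915, 2485 to 6447 normalized counts), whereas its paralog TOD6 ran with them (r = 0.912, 643 to 3286). STB3, which binds RRPE, had r = -0.801, with 899 normalized counts in oe TCP1 replicate 3 and 1993 in oe TCP1 replicate 1. SFP1, an activator of ribosome genes, had r = 0.21, and CRF1, a corepressor of ribosomal protein genes, had r = -0.885.

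Replicate 2 labelled oe SSC1 departed from the common profile. There the members were spread widest around their median, with an SD of 0.33 on the log2 scale against 0.15 to 0.27 in the other libraries. UTP20 (YBL004W), a long scaffold protein of the processome, was 1.03 above its own mean, YTM1 0.80 and UTP10 0.78, while NHP2 was at -0.50, CBF5 at -0.38 and RRS1 at -0.36. UTP20 was 1605 and 1332 normalized counts under oe EGD2, 1976, 1710 and 5520 under oe TCP1, 2812, 4822 and 5140 under oe LHS1 and 2655, 5538 and 1456 under the label oe SSC1. By role, UtpA had a median of 0.62 and the box H/ACA proteins -0.38.

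In the same library the ribosomal protein genes were low, with a median of -0.77 and 5 of 137 above their own mean, while 46 of 60 members were above theirs. The ribosomal protein sum was 4.14 times the member sum there and 6.26 to 13.2 times elsewhere. Longer genes stood higher in this library. The 30 members longer than 1711.5 bases were all above their own mean (median 0.41), against 16 of the 30 shorter ones (median 0.03). Other genes tested had medians of 0.22 (1736 longer genes) and -0.15 (4054 shorter genes). The stress-induced genes had a median of -0.64 there, with 6 of 20 above their own mean. Within this list the heat shock genes HSP104 and HSP42 were at their highest, at 205625 and 124960 normalized counts, while GLK1 (18926) and HXK1 (14264) were below their medians. The part of transcript length and of the stress genes in the members' spread was not tested.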

How the data were processed

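RNASeq signal per gene in 11 cultures, deposited by the authors as counts divided by DESeq2 size factors, was examined. The authors aligned single-end reads to sacCer3 with STAR 2.3.0e, counted them with HTSeq 0.6.0 without regard to strand, and removed outlier replicates after PCA. The version of DESeq2 they used is not given in the sources used here. Whole reads could be recovered, since 100% of the values in every library lay within 0.01 of a whole multiple of the smallest one, and 4 lines emptied for this work are not reported. Members and gene lists were chosen with earlier results of these data known.

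Strains were compared with limma 3.58.1 (mean-variance trend) in R 4.3.3 on log2 of the normalized count plus 1, for 6592 genes with a mean of at least 5, with all 4 strains in one fit and Benjamini-Hochberg adjustment. A fold on this scale understates the change of genes with few reads. Alternatives were pseudocount 8, no filter, a mean of at least 50, scaling to equal totals or by TMM, no trend, a replicate block, leaving out each library, edgeR 4.0.16 and DESeq2 1.42.0 on the recovered reads (edgeR called 1, 1, 0, 1 and 3 of all genes for oe SSC1, oe LHS1, oe EGD2, oe TCP1 and the F test, DESeq2 4, 1, 2, 3 and 3), and, chosen after seeing the data, leaving out replicates 1 and 3 labelled oe SSC1. The tests were tried on simulated data in which genes varied independently, without the shifts shared by many genes that were seen here. Those trials do not show how large a difference could be found in these libraries. Promoters were read from the RefSeq R64 assembly by systematic name (6045 of 7122 genes matched). The genes named are 31 members fixed by role, those with extreme spread, level or p by a fixed rule, and the 15 other genes with the most extreme r. For the lists the rule was up to 4 genes with the highest means. The RNA polymerase I genes and most regulators named do not follow it and were picked with their values known. UTP22 and the members that did not overlap were also named after their values were seen. With 214 reads or more behind each member and library, counting error is small beside the spread between cultures; intervals on motif shares cover counting error only.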

Additional observations from a re-analysis of the deposited data

How the results depend on the processing

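Over 21 alternatives, 0 members passed the threshold in any strain comparison, and the lowest adjusted p among members lay between 0.249 and 1. The median member difference stayed positive in oe LHS1 (0.54 to 1.00) and negative in oe EGD2 (-1.29 to -0.70) when each library was left out in turn, but ran from -0.31 to 0.20 in the libraries labelled oe SSC1 and from -0.26 (without oe TCP1 replicate 3) to 0.77 in oe TCP1. Over the other alternatives it was 0.57 to 0.78 in oe LHS1, -1.11 to -0.82 in oe EGD2, -0.18 to 0.32 in the libraries labelled oe SSC1 and 0.24 to 0.63 in oe TCP1. Leaving out each library, the log2 range of the member level was 1.91 to 2.59, their median SD 0.65 to 0.83, and the oe TCP1 difference of NOP7 -0.13 (without replicate 3) to 1.17. With scaling to equal totals the median of all genes stood at -0.10 in oe EGD2 (-0.01 before), where the members' median was then -1.08. For oe EGD2, the members with an unadjusted p under 0.05 ranged from 0 (replicate block, or without oe EGD2 replicate 2, oe LHS1 replicate 2 or oe LHS1 replicate 3) to 43 (without oe TCP1 replicate 2, 10.4% of all genes). Stricter motif letters (GCGATGAG and TGAAAAATT) were found in 63.3% (PAC), 50% (RRPE) and 28.3% (both) of members, and in 3.83%, 6.20% and 1.2% of all promoters. Of the overexpressed chaperones, LHS1 and TCP1 passed the F test, and 0 did with only replicate 2 of the libraries labelled oe SSC1; the cause was not tested.

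Whether replicate numbers paired the libraries was not settled. Deviations from strain means correlated above 0.1 in 8 of 15 pairs with the same number (-0.58 to 0.64, median 0.21). The same held for 13 of 30 pairs with different numbers (median -0.14). Yet 8 of 11 libraries correlated best with one of their own number. Both oe EGD2 libraries deviate from their shared mean by equal and opposite amounts, so their pairs have opposite signs. With the replicate block 0 members were called, and the median member differences were -0.17 (libraries labelled oe SSC1), 0.65 (oe LHS1), -0.82 (oe EGD2) and 0.30 (oe TCP1).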
